A study of Mus musculus with 15 samples.

Results

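The 36 genes described here encode the proteins that copy DNA in S phase and the factors that start it. They were taken as a list of names, chosen with earlier results of these data known. Shares of all genes given beside counts of members are therefore descriptions, not tests of the list. All 36 were found by symbol among the 53762 genes of the count table and passed the filter on low counts, which kept 16550 genes. RNA sequencing had been done on sorted mature thymocytes, the developing T cells of the thymus, in 15 libraries with 3 in each of 5 groups, all from mixed bone marrow chimeras on the C57BL/6 strain. Every population was gated CD44lo TCRbhi CD24lo CD69lo. The wild-type (WT) cells sorted as CD4 single-positive (SP) were CD45.1+CD45.2+ competitor cells that had developed in B2m-/- hosts. WT CD8 SP cells were CD45.1+CD45.2+ competitors from I-Ab-/- hosts. The other 3 groups were CD45.2+ cells of the genotype Thpokfl/fl Runx3fl/dYFP Cd4-Cre+, all from B2m-/- hosts. Of these, Thpok-RKF- cells had been sorted as CD8 SP and as CD4+CD8+, and Thpok-RKF+ cells as CD4+CD8+ alone. Thpok, encoded by Zbtb7b, and Runx3 are transcription factors of the helper and cytotoxic T cell lineages, Cd4-Cre deletes floxed genes in thymocytes that have switched on Cd4, and RKF is not explained in the labels. They give no age and do not say which libraries came from separate mice, so p-values measure the spread between these libraries, which may be technical.

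Before S phase, the origin recognition complex with Cdc6 and Cdt1 loads the ring of Mcm2 to Mcm7 onto DNA. Cdc45, the GINS complex and Mcm10 then turn that ring into the active helicase, while polymerases, the Pcna clamp and its loader build the new strands. E2F transcription factors switch on most of these genes at the G1/S transition. Most mature single-positive thymocytes are not dividing. In a bulk library, fewer cells in S phase and less replication RNA per cell cannot be told apart.

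Gene totals ranged from 37311823 to 48607260 counts. Levels are given in counts relative to library size (CPM), with library sizes scaled by the TMM method, so genes are set against each other by level only per kilobase, except where a correlation over genes is described. The sort and the genotype were checked on their own genes. Cd4 was at 822 to 970 CPM in WT CD4 SP, 0.803 to 3.86 in WT CD8 SP, 17.4 to 41.5 in Thpok-RKF- CD8 SP, 214 to 397 in Thpok-RKF- CD4+CD8+ and 1036 to 1147 in Thpok-RKF+ CD4+CD8+. Cd8a was at 2.13 to 7.68 CPM in WT CD4 SP and at 748 to 1657 in the other groups. Zbtb7b was at 27.4 to 79.2 CPM in WT CD4 SP, 0.0933 to 0.376 in WT CD8 SP, 1.67 to 2.95 over both Thpok-RKF- groups, and 768 to 823 in Thpok-RKF+ CD4+CD8+. Runx3 was at 23.1 to 32.4 CPM in WT CD4 SP, 194 to 220 in WT CD8 SP and 247 to 361 over the 3 mutant groups, where counts per gene do not resolve the deleted exons. By the median deviation of the members from their group's mean, library 1 was the lowest of the 3 in 4 of the 5 groups, between -0.33 and -0.07 on the log2 scale, and the highest in Thpok-RKF- CD4+CD8+ at 0.07. In WT CD8 SP, library 1 was the lowest of the 3 for 36 of 36 members. It was the lowest for 23 members in WT CD4 SP, 19 in Thpok-RKF- CD8 SP, 12 in Thpok-RKF- CD4+CD8+, where replicate 3 was the lowest for 15, and 21 in Thpok-RKF+ CD4+CD8+. Over all genes tested, library 1 was the lowest of the 3 for 34.5% to 42.8% of genes, by group.

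Replication genes were highest in WT CD8 SP cells. Summed over the 36 genes, the level was 3630, 5076 and 5310 CPM in WT CD8 SP replicates 1 to 3, against 1584, 1760 and 1978 in WT CD4 SP. The sums were 1383, 1541 and 1622 CPM in Thpok-RKF- CD8 SP from lowest to highest, 1873, 1912 and 1956 in Thpok-RKF- CD4+CD8+, and 1689, 2041 and 2190 in Thpok-RKF+ CD4+CD8+. No other group reached the lowest WT CD8 SP library. By group mean, WT CD8 SP was the highest group for 35 of 36 members, the exception being E2f2, and Thpok-RKF- CD8 SP was the lowest for 28. For 31 members all 3 WT CD8 SP libraries lay above all 12 others, an arrangement that 6.72% of all 16550 genes showed. The members without it were Rpa2, Fen1, E2f2, Chaf1b and Slbp. For 10 members all 3 Thpok-RKF- CD8 SP libraries lay below all 12 others, against 2.44% of all genes. These were Cdc6, Mcm10, Cdc45, Pcna, Rrm2, Tyms, Tk1, E2f1, Dtl and Chaf1a. In the edgeR test for any difference among the 5 groups, 34 members passed at an adjusted p under 0.05, against 27.9% of all genes. Rpa2 (adjusted p = 0.209) and Fen1 (adjusted p = 0.147) did not pass.

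**Figure D1:**
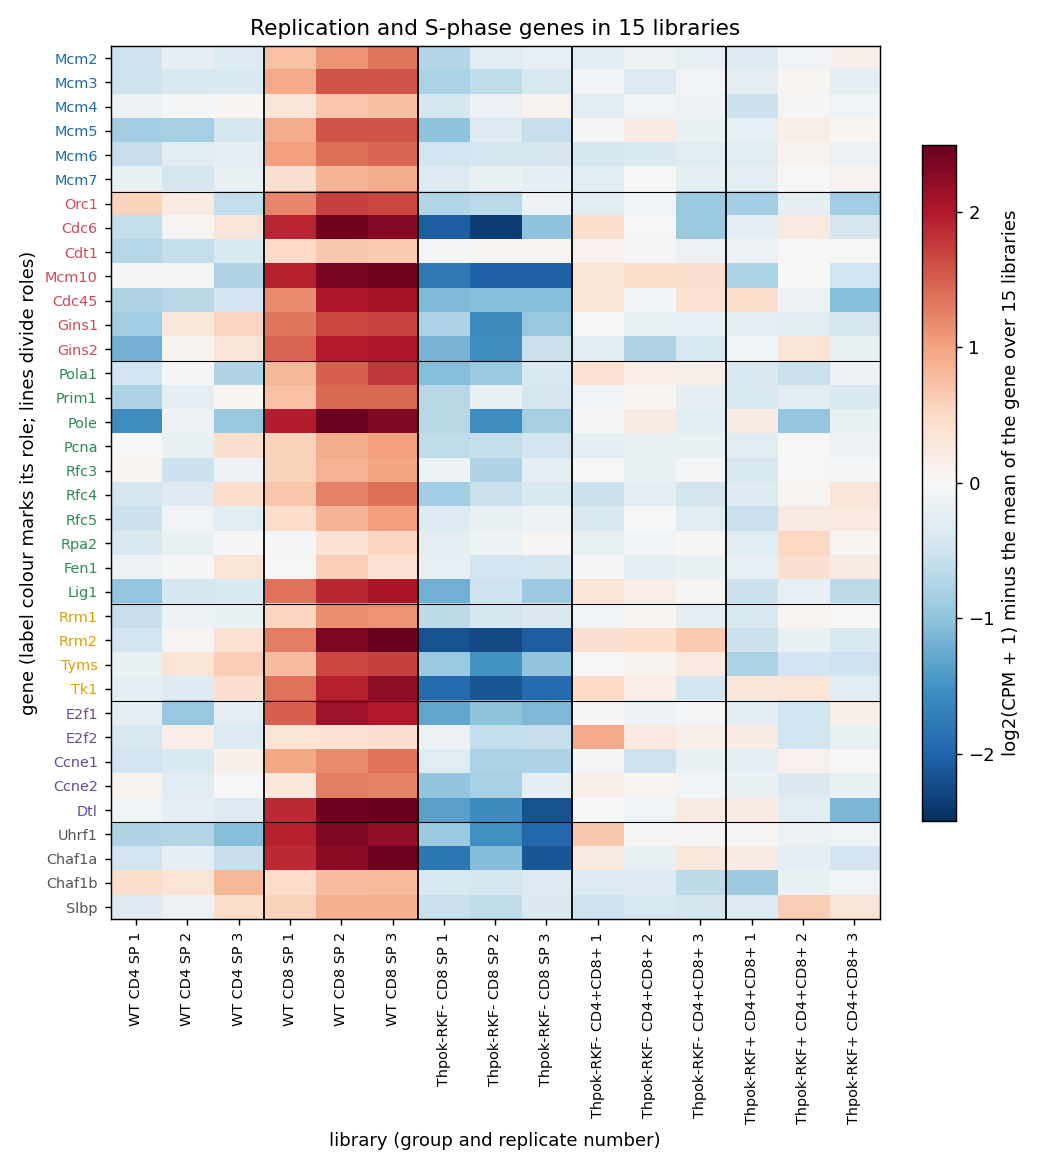
Colour gives log2(CPM + 1) of each of the 36 genes (vertical axis, label colour by role) in each of 15 libraries (horizontal axis) minus that gene's mean over the 15. The 3 WT CD8 SP columns are the highest for 31 of the 36 genes, with replicate 1 the palest of the 3, and the Thpok-RKF- CD8 SP columns are the lowest for 10 genes such as Mcm10, Rrm2 and Tk1.

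The sequence just upstream of the start site is shown for a few members that stand for the pattern, because E2F factors act through short elements there. RefSeq promoter windows (build GRCm38.p6, 250 bases before to 50 after the start site) were matched by symbol for 31 of 36 members, not for Mcm4, Gins1, Gins2, Pole and Ccne2. An E2F-like element (TTTCGCGC, TTTGGCGC or TTTCCCGC on either strand, where matches can overlap on opposite strands) was present in windows of 13 members and of 2.12% of the 27025 genes with a window. The members were Mcm3, Mcm5, Mcm6, Mcm7, Orc1, Cdc6, Cdt1, Pola1, Rfc3, Lig1, E2f2, Dtl and Uhrf1. A CCAAT box (CCAAT, either strand) was present for 20 members and 41.1% of genes, and the element TTTGAA for 4 members and 20.2% of genes. The 200 bases before the start site are printed 5′ to 3′ on the gene's strand, with the E2F-like letters in capitals. They lie at chr8:75109309-75109508, plus strand, for Mcm5, chr1:128359706-128359905, minus strand, for Mcm6, chr1:191575545-191575744, minus strand, for Dtl, chr17:56304113-56304312, plus strand, for Uhrf1 and chr12:24708054-24708253, plus strand, for Rrm2, a member with large differences and no such letters in its window. Uhrf1 has a second window in the table, not printed, which holds none of the E2F-like letters. Bases just after the start site were found early in a transcript of the GENCODE vM21 annotation for Dtl, Uhrf1 and Rrm2. For Mcm5 and Mcm6 they were not. A match is a run of letters, not a measured binding site.
Mcm5: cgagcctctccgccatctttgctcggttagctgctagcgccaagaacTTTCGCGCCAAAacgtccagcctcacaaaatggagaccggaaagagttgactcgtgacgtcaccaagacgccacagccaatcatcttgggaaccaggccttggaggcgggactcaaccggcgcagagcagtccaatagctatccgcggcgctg
Mcm6: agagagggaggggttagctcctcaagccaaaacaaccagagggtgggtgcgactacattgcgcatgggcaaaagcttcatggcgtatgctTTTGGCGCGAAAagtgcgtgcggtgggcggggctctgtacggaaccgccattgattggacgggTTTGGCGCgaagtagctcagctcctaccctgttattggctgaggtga
Dtl: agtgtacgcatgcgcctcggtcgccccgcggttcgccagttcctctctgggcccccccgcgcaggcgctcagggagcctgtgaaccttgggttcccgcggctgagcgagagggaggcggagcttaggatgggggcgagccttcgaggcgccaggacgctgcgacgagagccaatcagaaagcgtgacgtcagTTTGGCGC
Uhrf1: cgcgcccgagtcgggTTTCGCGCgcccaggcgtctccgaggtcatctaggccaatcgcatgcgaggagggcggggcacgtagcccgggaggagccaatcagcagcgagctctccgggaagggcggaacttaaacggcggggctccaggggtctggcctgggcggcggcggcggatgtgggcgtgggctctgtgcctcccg
Rrm2: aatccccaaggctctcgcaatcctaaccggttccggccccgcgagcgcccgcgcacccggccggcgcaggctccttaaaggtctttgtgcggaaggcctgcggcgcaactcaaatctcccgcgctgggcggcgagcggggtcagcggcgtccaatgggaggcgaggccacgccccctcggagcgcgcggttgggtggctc

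The first comparison set helper against cytotoxic WT cells. In WT CD4 SP, 32 of 36 members were lower than in WT CD8 SP and none was higher, where 10.3% of all genes were lower and 7.72% higher. The median log2 difference over the members was -1.61, against -0.03 over all genes tested. Host differed with lineage here, so lineage and host cannot be told apart. The summed level of 7 markers of NKT and innate-like cells also differed, with 112 to 188 CPM in WT CD4 SP against 696 to 720 in WT CD8 SP. Most of that sum was Il2rb, an interleukin receptor chain, at a mean of 136 CPM in the former and 597 in the latter. Of the 7 markers 5 were lower in WT CD4 SP, while Zbtb16, the defining factor of NKT cells, had a value of the other sign, 4.07 (adjusted p = 0.0622). The part of these markers in the results was not tested.

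All 6 helicase subunits were lower in WT CD4 SP. Mcm2 was at 135, 163 and 152 CPM in the WT CD4 SP libraries and 322, 423 and 488 in those of WT CD8 SP. In the mutants it was at 117, 162 and 169 for CD8 SP and 162, 176 and 167 for CD4+CD8+ cells of Thpok-RKF-, and at 155, 182 and 211 for Thpok-RKF+. Every WT CD8 SP library lay above every other library, and the other 4 groups overlapped. Mcm2 fell by 1.45 ± 0.17 (SE; adjusted p = 4.44e-05) on the log2 scale in WT CD4 SP. Mcm6, whose promoter window holds E2F-like letters and which had the smallest p of the subunits over the 5 groups, was at 172, 210.1 and 220.2 CPM in the WT CD4 SP libraries and 521, 664 and 707 in those of WT CD8 SP. The mutant libraries were at 184, 191 and 193 for CD8 SP and 190.0, 198 and 209 for CD4+CD8+ cells of Thpok-RKF-, and at 208, 274 and 232 for Thpok-RKF+. Again every WT CD8 SP library lay above every other library. The other groups overlapped, except that Thpok-RKF- CD8 SP lay below Thpok-RKF+ CD4+CD8+. The log2 fold change of Mcm6 in WT CD4 SP was -1.65 ± 0.14 (SE; adjusted p = 1.32e-06). Mcm5 showed the largest change of the ring at -2.10 ± 0.21 (SE; adjusted p = 8.87e-06), and Mcm4 the smallest at -0.64 ± 0.17 (SE; adjusted p = 0.0151). Per kilobase of exon in the GENCODE vM21 annotation, the most and least abundant of the 6 subunits, which form 1 ring, differed 2.52-fold in mean level for WT CD4 SP, 2.29-fold for WT CD8 SP, and between 1.91-fold and 2.19-fold in the mutant groups.

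All 7 factors of origin licensing and helicase activation were also lower. Mcm10, which joins the helicase when it is activated, was at 5.0, 5.28 and 2.65 CPM in the WT CD4 SP libraries and 22.8, 31.1 and 31.7 in those of WT CD8 SP. The mutants were at 0.786, 0.519 and 0.535 for CD8 SP and 6.78, 7.43 and 7.11 for CD4+CD8+ cells of Thpok-RKF-, and at 2.56, 5.14 and 3.39 for Thpok-RKF+. The WT CD8 SP libraries were the highest and the Thpok-RKF- CD8 SP libraries the lowest of all. Mcm10 changed by -2.72 ± 0.31 (SE; adjusted p = 2.94e-05) in WT CD4 SP on the log2 scale, the largest change of these 7. Cdt1, which brings the ring to the origin, changed least, by -1.18 ± 0.12 (SE; adjusted p = 7.93e-06). Of the 10 DNA synthesis genes 8 were lower. Pole, the catalytic subunit of the leading-strand polymerase, had the largest change of all 36 members at -3.23 ± 0.43 (SE; adjusted p = 0.000123). Lig1, the ligase that joins Okazaki fragments, was at 13.8, 20.5 and 21.1 CPM in the WT CD4 SP libraries and 72.8, 105 and 117 in those of WT CD8 SP. In the mutants Lig1 was at 11.5, 19.3 and 14.4 for CD8 SP and 35.4, 31.3 and 28.2 for CD4+CD8+ cells of Thpok-RKF-, and at 18.9, 24.2 and 17.2 for Thpok-RKF+. WT CD8 SP lay above the rest, and the Thpok-RKF- CD4+CD8+ libraries above the remaining 9. Lig1 changed by -2.41 ± 0.24 (SE; adjusted p = 8.37e-06) in WT CD4 SP. Pcna, the sliding clamp, was at 105, 91.0 and 138 CPM in the WT CD4 SP libraries and 155, 198 and 211 in those of WT CD8 SP. In the mutants it was at 66.3, 68.8 and 74.0 for CD8 SP and 88.8, 91.4 and 91.2 for CD4+CD8+ cells of Thpok-RKF-, and at 85.4, 103 and 95.7 for Thpok-RKF+. Pcna had a smaller difference of -0.75 ± 0.15 (SE; adjusted p = 0.00311). Rpa2, a subunit of the single-strand binding protein, gave -0.50 ± 0.19 (SE; adjusted p = 0.0816). Fen1, the flap nuclease, was at 0.865 to 2.91 CPM over the 15 libraries and gave -0.40 ± 0.37 (SE; adjusted p = 0.534). In GENCODE vM21, 84.2% of the exonic bases of Fen1, 67.3% of Gins2 and 52.5% of Chaf1a overlap a gene on the opposite strand. The strand setting is not given in the sources used here, so reads of these genes and their partners cannot be told apart.

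Nucleotide supply was lower for 4 of 4 genes. Rrm2, the S-phase subunit of ribonucleotide reductase, whose window printed above holds no E2F-like letters, was at 33.7, 50.5 and 62.7 CPM in the WT CD4 SP libraries and 116, 247 and 272 in those of WT CD8 SP. The mutant groups were at 9.77, 9.32 and 10.7 for CD8 SP and 63.1, 65.5 and 76.0 for CD4+CD8+ cells of Thpok-RKF-, and at 32.6, 42.7 and 36.3 for Thpok-RKF+. The Thpok-RKF- CD8 SP libraries lay below the other 12 and WT CD8 SP above them. The WT difference was -2.11 ± 0.27 (SE; adjusted p = 0.000104). Tk1, the thymidine kinase of S phase, was at 6.51, 6.0 and 10.8 CPM in the WT CD4 SP libraries and 21.6, 32.5 and 40.1 in those of WT CD8 SP. In the mutants it was at 1.33, 0.994 and 1.34 for CD8 SP and 11.4, 8.80 and 5.33 for CD4+CD8+ cells of Thpok-RKF-, and at 9.88, 10.2 and 6.35 for Thpok-RKF+. Its WT difference was -2.02 ± 0.33 (SE; adjusted p = 0.000648), and again both CD8 SP groups took the ends of the range. Among G1/S controls, 4 of 5 were lower. E2f1, an activating E2F factor, was at 12.9, 7.39 and 12.6 CPM in the WT CD4 SP libraries and 44.4, 68.8 and 63.3 in those of WT CD8 SP. In the mutants it was at 5.59, 7.05 and 6.40 for CD8 SP and 15.5, 13.8 and 14.8 for CD4+CD8+ cells of Thpok-RKF-, and at 12.3, 10.5 and 16.9 for Thpok-RKF+, and its WT difference was -2.42 ± 0.25 (SE; adjusted p = 1.01e-05). Ccne1, encoding cyclin E1, was at 21.7, 23.5 and 33.5 CPM in the WT CD4 SP libraries and 61.6, 71.5 and 80.9 in those of WT CD8 SP. In the mutants Ccne1 was at 24.8, 17.5 and 17.7 for CD8 SP and 29.9, 21.2 and 26.9 for CD4+CD8+ cells of Thpok-RKF-, and at 25.8, 33.2 and 30.5 for Thpok-RKF+. The 4 groups other than WT CD8 SP overlapped, except that Thpok-RKF- CD8 SP lay below Thpok-RKF+ CD4+CD8+. Ccne1 differed between the WT groups by -1.44 ± 0.20 (SE; adjusted p = 0.000209). E2f2 did not pass, at -0.56 ± 0.24 (SE; adjusted p = 0.134).

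Chromatin genes differed among themselves. Uhrf1, which carries DNA methylation through replication, was at 23.2, 23.4 and 18.4 CPM in the WT CD4 SP libraries and 155, 202 and 186 in those of WT CD8 SP. The mutants were at 20.3, 13.1 and 9.50 for CD8 SP and 63.4, 40.6 and 40.4 for CD4+CD8+ cells of Thpok-RKF-, and at 40.3, 35.8 and 37.2 for Thpok-RKF+. Its WT difference of -3.06 ± 0.25 (SE; adjusted p = 1.45e-06) was the second largest of all members. Chaf1a and Chaf1b encode subunits of the same histone chaperone, CAF-1. Chaf1a differed by -2.82 ± 0.33 (SE; adjusted p = 4.63e-05). Chaf1b was at 61.6, 57.8 and 81.7 CPM in the WT CD4 SP libraries and 62.3, 77.6 and 79.0 in those of WT CD8 SP, which overlap, and differed by -0.12 ± 0.20 (SE; adjusted p = 0.749). In the mutants Chaf1b was at 34.4, 33.5 and 35.7 for CD8 SP and 35.8, 36.1 and 28.6 for CD4+CD8+ cells of Thpok-RKF-, and at 23.5, 40.0 and 42.7 for Thpok-RKF+, below every WT library. Slbp, which binds histone mRNA, was at 98.2, 112 and 169 CPM in the WT CD4 SP libraries and 183, 231 and 230.4 in those of WT CD8 SP. In the mutants it was at 84.1, 79.2 and 96.2 for CD8 SP and 86.4, 93.7 and 89.6 for CD4+CD8+ cells of Thpok-RKF-, and at 97.4, 191 and 155 for Thpok-RKF+, and its WT difference was -0.76 ± 0.22 (SE; adjusted p = 0.0285).

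Leaving out 1 library at a time gave between 27 and 33 members lower, with 27 without WT CD8 SP replicate 2 or replicate 3 and 31 without the low replicate 1. Calls of Mcm4, Orc1, Gins1, Ccne2 and Slbp were lost without either of WT CD8 SP replicates 2 and 3. Without WT CD4 SP replicate 1 those of Mcm4, Gins1 and Slbp were lost, without replicate 2 those of Orc1, Gins1, Ccne2 and Slbp, and without replicate 3 those of Orc1 and Ccne2. Gins1 also lost its call without WT CD8 SP replicate 1 and without Thpok-RKF- CD8 SP replicate 3, any Thpok-RKF- CD4+CD8+ library or Thpok-RKF+ replicate 3. The adjusted p of these calls then lay between 0.051 and 0.133. Without all 5 libraries numbered 1, 32 members were lower, against 9.24% of all genes, with Gins1 lost and Rpa2 gained.

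**Figure D2:**
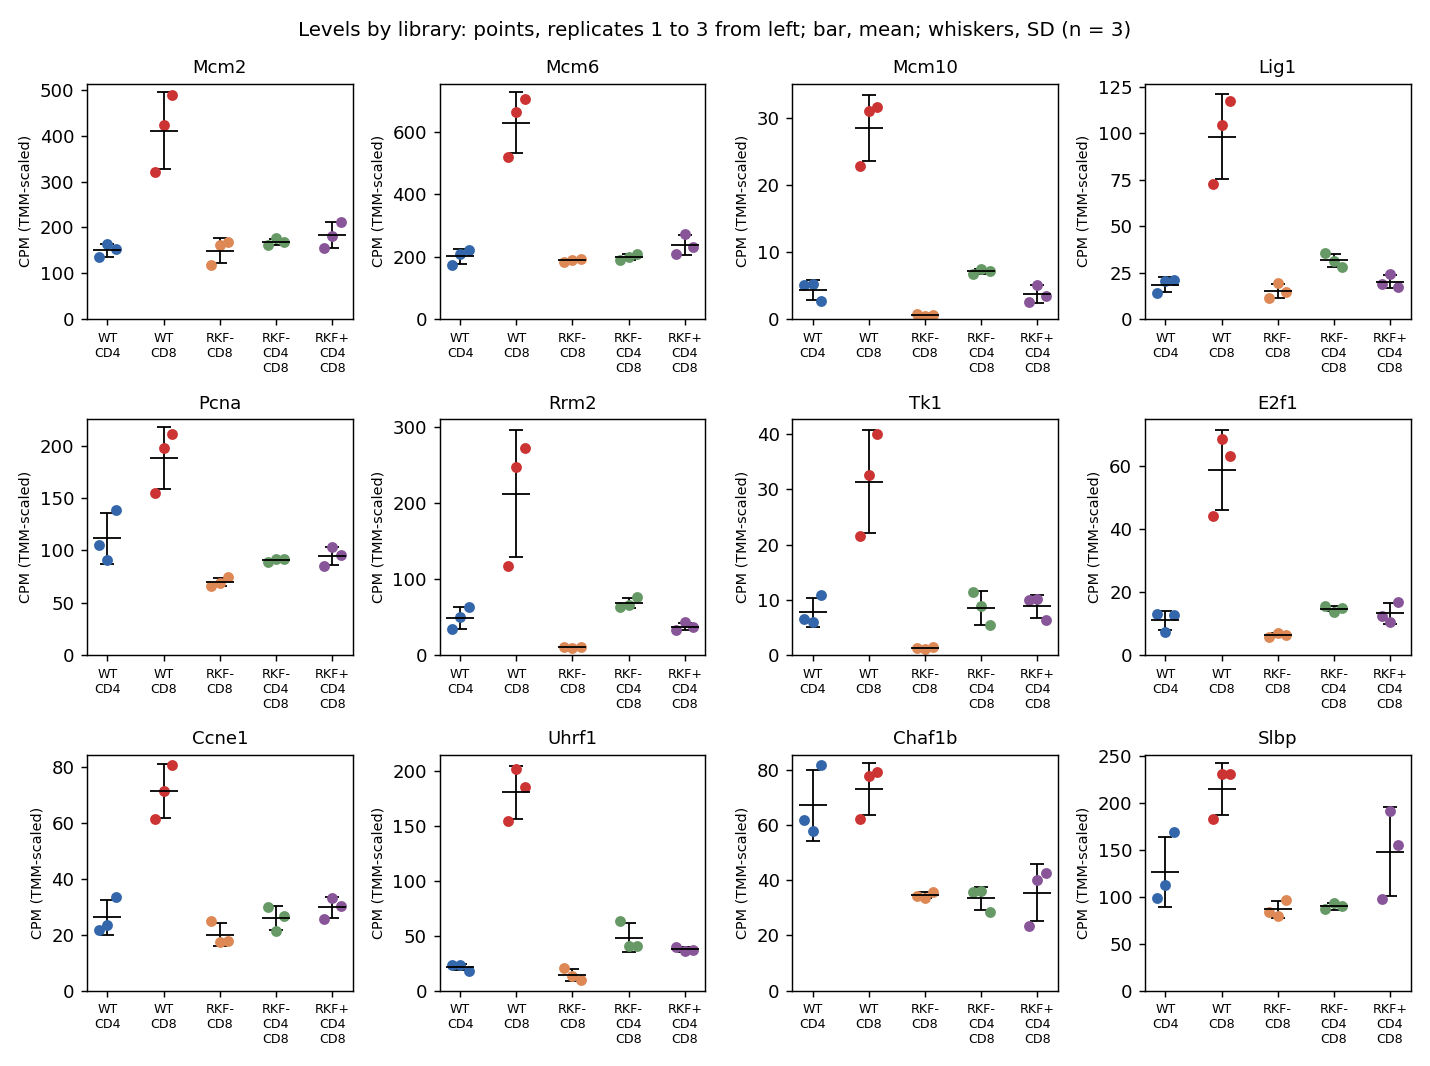
Levels of 12 members in CPM with TMM-scaled library sizes (vertical axes, from 0) by group (horizontal axes). Points are the libraries with replicates 1 to 3 from left to right, bars the mean and whiskers the SD (n = 3). WT CD8 SP stands above the other groups in every panel except Chaf1b and Slbp, and Rrm2, Tk1 and Mcm10 are lowest in Thpok-RKF- CD8 SP.

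The mutant CD8 SP cells did not have the high levels of WT CD8 SP cells. In Thpok-RKF- CD8 SP, 35 of 36 members were lower than in WT CD8 SP and none was higher, where 10.6% of all genes were lower and 7.78% higher. The median log2 difference was -2.0 for the members and 0.00 over all genes tested. Mcm10 had the largest difference at -5.53 ± 0.36 (SE; adjusted p = 1.78e-07), followed by Tk1 at -4.68 ± 0.37 (SE; adjusted p = 9.18e-07). Rrm2 differed by -4.42 ± 0.30 (SE; adjusted p = 3.14e-07). The helicase subunits, with a median of -1.60, had smaller differences, from -0.75 ± 0.17 (SE; adjusted p = 0.00488) for Mcm4 to -2.01 ± 0.21 (SE; adjusted p = 9.43e-06) for Mcm5. Chaf1b, at -1.08 ± 0.20 (SE; adjusted p = 0.00162), was among the members that fell. Rpa2 alone did not pass, at -0.41 ± 0.19 (SE; adjusted p = 0.165). Genotype and host differ together here and cannot be told apart. Fen1 lost its call on leaving out each of 11 libraries in turn (adjusted p up to 0.192, without WT CD8 SP replicate 2), all except WT CD4 SP replicates 1 and 3, WT CD8 SP replicate 1 and Thpok-RKF+ replicate 1. E2f2 lost its call without any of the 3 WT CD8 SP libraries or Thpok-RKF- CD8 SP replicates 2 and 3 (adjusted p up to 0.105). Without Thpok-RKF- CD8 SP replicate 3, where Cdc6 was at 4.77 CPM against 1.77 and 1.25 in the others, the log2 fold change of Cdc6 moved from -4.33 to -5.10, and that of Gins2 from -3.68 to -4.33. Without the 5 libraries numbered 1, 35 members were lower, against 11.2% of all genes.

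Among Thpok-RKF- cells, which had the same genotype and host, those sorted as CD4+CD8+ had more RNA of one portion of the list than CD8 SP cells. In CD4+CD8+ cells 11 members were higher and none was lower, where 1.72% of all genes were higher and 0.719% lower. The median was 0.52 over the members and 0.00 over all genes. The 11 were Cdc6, Mcm10 and Cdc45 of the licensing and activation group, Lig1 of DNA synthesis, Rrm2, Tyms and Tk1 of nucleotide supply, E2f1 and Dtl of G1/S control, and Uhrf1 and Chaf1a of the chromatin group. Mcm10 rose most, by 3.53 ± 0.33 (SE; adjusted p = 3.44e-05). Tk1 rose by 2.80 ± 0.35 (SE; adjusted p = 0.000381) and Rrm2 by 2.78 ± 0.28 (SE; adjusted p = 6.14e-05). Dtl, which directs the destruction of Cdt1 in S phase, rose by 2.04 ± 0.35 (SE; adjusted p = 0.00437). The same 7 NKT and innate-like markers summed to 174 to 217 CPM in these CD8 SP cells and 352 to 464 in CD4+CD8+ cells. Of these, Il2rb (1.0, adjusted p = 0.00541) and Eomes (2.51, adjusted p = 0.0453) rose, the values of Zbtb16 (-0.26), Tbx21 (-1.39) and Klrb1c (-5.06) were negative and did not pass, and the part of the markers was not tested. The 6 helicase subunits did not pass, with a median of 0.13. Mcm2 was at 117, 162 and 169 CPM in CD8 SP and 162, 176 and 167 in CD4+CD8+, which overlap, and gave 0.17 ± 0.17 (SE; adjusted p = 0.86). With a term for the libraries numbered 1, Mcm5, Pola1 and E2f2 passed as well, 14 in all. Without that term Mcm5 gave the largest value of the 6 at 0.61 ± 0.20 (SE; adjusted p = 0.184). Pcna gave 0.38 ± 0.15 (SE; adjusted p = 0.335) and Rrm1, the large subunit of the reductase that Rrm2 completes, 0.40 ± 0.18 (SE; adjusted p = 0.44). The negative values were those of Cdt1 (-0.05 ± 0.11, SE; adjusted p = 0.957), Chaf1b, Mcm4 and Rfc5, between -0.05 and -0.01, and none passed.

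Of the 11 calls, those of Mcm10, Rrm2, Tk1, Dtl, Uhrf1 and Chaf1a were kept when any 1 library was left out. Cdc6, Cdc45, Lig1, Tyms and E2f1 each lost theirs without 1 or more libraries of the groups compared. Without Thpok-RKF- CD8 SP replicate 1, those of Cdc6, Cdc45, Lig1 and E2f1 were lost, which left 7. Without its replicate 2 those of Cdc6, Cdc45 and Tyms were lost, and without its replicate 3 those of Cdc45, Lig1, Tyms and E2f1. Without Thpok-RKF- CD4+CD8+ replicate 1, Cdc6, Cdc45 and Lig1 were lost, without replicate 2 Cdc6 and Lig1, and without replicate 3 Cdc45 and Tyms. Cdc6 also lost its call without any WT CD8 SP library, WT CD4 SP replicate 2 or Thpok-RKF+ CD4+CD8+ replicate 3. The adjusted p of these calls lay between 0.0501 and 0.168, and the log2 fold change of Cdc6 was 2.75 without Thpok-RKF- CD8 SP replicate 3. Without the 5 libraries numbered 1, 7 members were higher, against 2.15% of all genes, and Cdc6, Cdc45, Lig1 and E2f1 were lost.

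**Figure D3:**
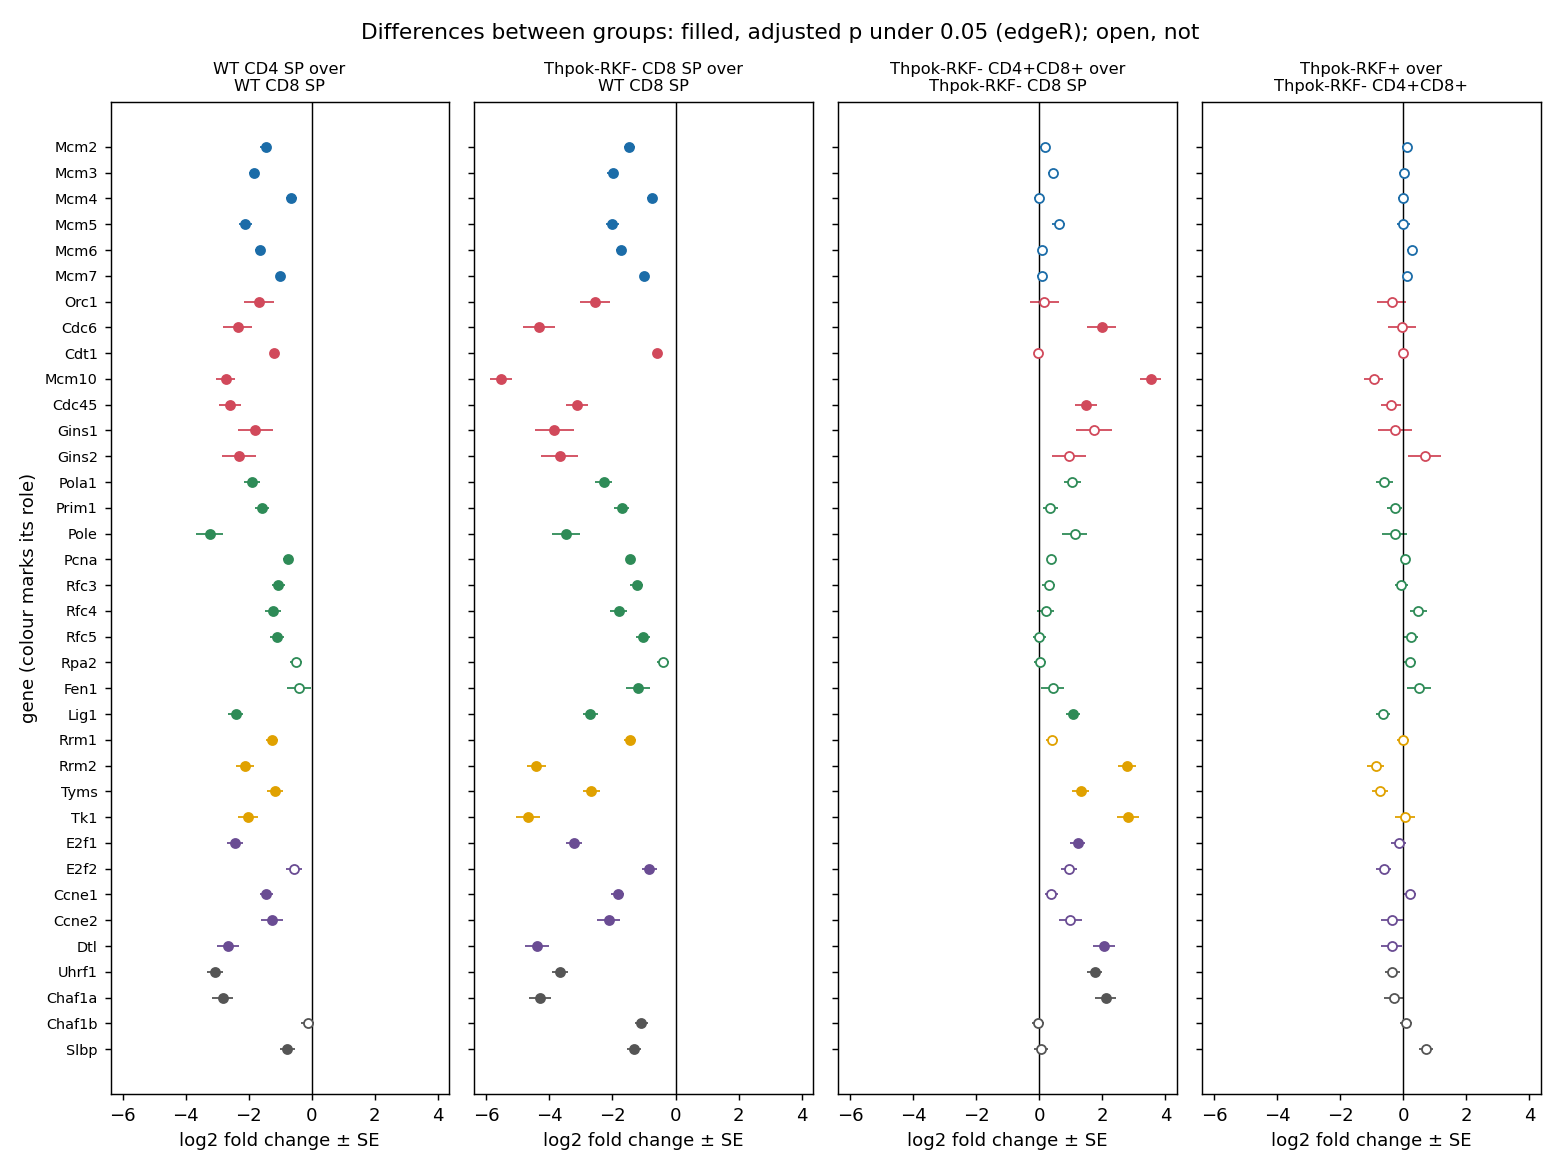
Log2 fold change (horizontal axes) with its SE for the 36 genes (vertical axis, colour by role) in 4 comparisons. Filled points have an edgeR adjusted p under 0.05: 32, 35 and 11 points in the first 3 panels and none in the last, and in the third panel the 6 helicase subunits at the top lie between -0.02 and 0.61 while Mcm10, Rrm2 and Tk1 lie beyond 2.

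The difference of differences compared the CD4-expressing minus CD8 SP difference of the Thpok-RKF- cells with that of the WT cells. For 11 members the 2 differences had both passed with opposite signs, the mutant one positive, and the difference of differences passed as well. All of this held for 0.912% of all genes. The difference of differences was positive for 36 of 36 members, and 30 passed, all higher, where 8.47% of all genes were higher and 5.79% lower. Its median was 2.08, against 0.04 over all genes. Host differed within the WT difference and not within the mutant one, so host and genotype cannot be told apart here. The helicase subunits had a median of 1.68, where their WT difference had -1.55 and their mutant difference 0.13. Mcm10 had 6.25 ± 0.45 (SE; adjusted p = 7.3e-07) and Uhrf1 4.81 ± 0.35 (SE; adjusted p = 7.33e-07). The members that did not pass were Mcm4, Orc1, Rpa2, Fen1, Chaf1b and Slbp, among which Chaf1b had 0.08 ± 0.29 (SE; adjusted p = 0.906) and took a negative sign without WT CD4 SP replicate 2, WT CD8 SP replicate 3 or Thpok-RKF- CD4+CD8+ replicate 2. Rfc4 and Rfc5, subunits of the clamp loader, lost their calls on leaving out 6 and 9 libraries in turn (adjusted p up to 0.0675 and 0.0851, both without WT CD8 SP replicate 3). Both calls were lost without WT CD4 SP replicate 1, WT CD8 SP replicates 2 or 3, Thpok-RKF- CD8 SP replicate 1 or Thpok-RKF- CD4+CD8+ replicate 2. Rfc4 lost its call also without WT CD4 SP replicate 2, and Rfc5 without WT CD4 SP replicate 3, Thpok-RKF- CD8 SP replicates 2 or 3 or Thpok-RKF- CD4+CD8+ replicate 3. Without Thpok-RKF- CD8 SP replicate 3 the value of Cdc6 moved from 4.31 to 5.07 and that of Gins2 from 3.22 to 3.86.

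The size of the difference varied between members in a like manner in WT and mutant cells, which share no library. Over the 36 members, the log2 fold of WT CD8 SP over WT CD4 SP and that of Thpok-RKF- CD4+CD8+ over Thpok-RKF- CD8 SP had a Spearman correlation of 0.746. This is a description over genes, which are not independent. Members at lower levels had larger differences in both: the Spearman correlation with the mean log2 level was -0.386 for the WT fold and -0.573 for the mutant fold.

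**Figure D4:**
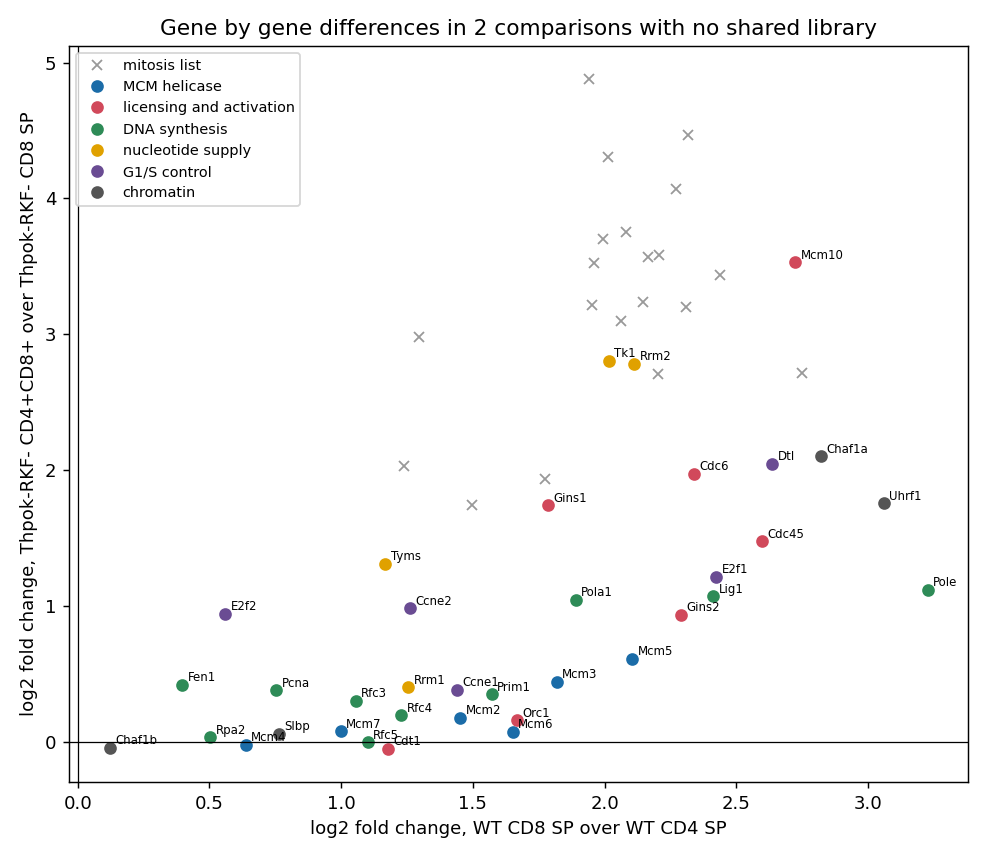
Each point is 1 gene, placed by its log2 fold change in WT CD8 SP over WT CD4 SP (horizontal axis) and in Thpok-RKF- CD4+CD8+ over Thpok-RKF- CD8 SP (vertical axis), with members coloured by role and 20 mitosis genes as grey crosses. Helicase subunits lie between 0.64 and 2.10 on the horizontal axis and between -0.02 and 0.61 on the vertical axis, while Mcm10, Tk1 and Rrm2 lie among the mitosis genes.

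Against WT CD4 SP cells, which had the same hosts, Thpok-RKF- CD8 SP cells had 11 members lower and 1 higher, where 8.75% of all genes were lower and 8.91% higher. The median was -0.54 over the members and 0.00 over all genes. Mcm10 (-2.81 ± 0.33 SE, adjusted p = 4.45e-05), Tk1 (-2.67 ± 0.35 SE, adjusted p = 0.000115) and Rrm2 (-2.30 ± 0.28 SE, adjusted p = 6.22e-05) fell most. The others that fell were Cdc6, Gins1, Pcna, Tyms, E2f1, Dtl, Chaf1a and Chaf1b. Cdt1 alone rose, by 0.60 ± 0.11 (SE; adjusted p = 0.0026). Its values in each library, like those of Chaf1b above, are given because of this direction and were chosen after they were seen. It was at 43.1, 46.3 and 54.2 CPM in WT CD4 SP and 69.6, 73.4 and 74.3 in Thpok-RKF- CD8 SP, which do not overlap. No helicase subunit passed, and their values lay between -0.18 and 0.10. Gins1 lost its call without WT CD4 SP replicates 2 or 3 or Thpok-RKF- CD8 SP replicates 2 or 3 (adjusted p up to 0.0992). E2f1 lost its call without WT CD4 SP replicates 1 or 3 or any Thpok-RKF- CD8 SP library (up to 0.114). The log2 fold change of Cdc6 moved from -1.99 to -2.78 without Thpok-RKF- CD8 SP replicate 3.

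The CD4+CD8+ mutant groups were near WT CD4 SP for most members. Thpok-RKF- CD4+CD8+ cells had 4 members higher and 1 lower, where 9.15% of all genes were higher and 8.42% lower, and a member median of 0.13 against 0.01 over all genes. Uhrf1 rose by 1.15 ± 0.24 (SE; adjusted p = 0.00582), Lig1 by 0.78 ± 0.23 (SE; adjusted p = 0.0317), Mcm5 by 0.71 ± 0.20 (SE; adjusted p = 0.028) and Cdt1 by 0.54 ± 0.11 (SE; adjusted p = 0.00625). Chaf1b changed by -1.0 ± 0.20 (SE; adjusted p = 0.00506). Cdc45 gave 0.95 ± 0.33 (SE; adjusted p = 0.0633) and Orc1 -0.72 ± 0.46 (SE; adjusted p = 0.301). Thpok-RKF+ CD4+CD8+ cells had 2 members higher and 2 lower, where 4.36% of all genes were higher and 2.91% lower, and a median of 0.16 against 0.01. Cdt1 rose by 0.53 ± 0.11 (SE; adjusted p = 0.0109) and Mcm5 by 0.71 ± 0.20 (SE; adjusted p = 0.0483). Chaf1b changed by -0.92 ± 0.20 (SE; adjusted p = 0.0117) and Tyms, the thymidylate synthase, by -0.94 ± 0.26 (SE; adjusted p = 0.0434). Uhrf1 gave 0.80 ± 0.24 (SE; adjusted p = 0.0583) and Orc1 -1.09 ± 0.46 (SE; adjusted p = 0.195). Chaf1b and Cdt1 thus passed against WT CD4 SP in all 3 mutant groups, comparisons that share the WT CD4 SP libraries. The share of all genes that passed in all 3 was not counted.

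Leaving out 1 library gave between 3 and 7 members called for Thpok-RKF- CD4+CD8+, with 3 without WT CD4 SP replicate 1 or Thpok-RKF- CD4+CD8+ replicates 1 or 2. Mcm5 lost its call without WT CD4 SP replicates 1 or 2 or Thpok-RKF- CD4+CD8+ replicates 1 or 2 (adjusted p up to 0.116), and Lig1 without WT CD4 SP replicates 1 or 3 or any Thpok-RKF- CD4+CD8+ library (up to 0.118). For Thpok-RKF+ CD4+CD8+ the count lay between 2 and 5. It was 2 without any WT CD4 SP library, WT CD8 SP replicates 2 or 3, Thpok-RKF- CD4+CD8+ replicates 2 or 3 or Thpok-RKF+ replicates 2 or 3. Tyms kept its call only without WT CD4 SP replicate 1, WT CD8 SP replicate 1 or Thpok-RKF- CD8 SP replicates 1 or 2, with an adjusted p up to 0.164 (without WT CD4 SP replicate 3). Mcm5 kept its call only without WT CD4 SP replicate 3, WT CD8 SP replicate 1, Thpok-RKF- CD8 SP replicates 1 or 2 or Thpok-RKF+ replicate 1, with an adjusted p up to 0.161 (without WT CD4 SP replicate 1). Cdt1 lost its call without WT CD4 SP replicate 1 (0.0561) and Chaf1b without its replicate 3 (0.0543). With only the groups compared in the fit, 1 member was called, Uhrf1.

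Between the CD4+CD8+ groups, which by label differ in Thpok-RKF alone, no member passed, where 0.586% of all genes were higher and 0.375% lower in Thpok-RKF+. At an unadjusted p under 0.05 there were 7 members, against 14.3% of all genes. The DESeq2 Wald test called 3 (Mcm10, Rrm2 and Slbp), against 4.59% of the genes it tested, and limma-trend called 0. The median was -0.04 over the members and 0.01 over all genes. Rrm2 gave -0.87 ± 0.27 (SE; adjusted p = 0.155), with all 3 Thpok-RKF+ libraries below all 3 Thpok-RKF- libraries. Mcm10 gave -0.94 ± 0.29 (SE; adjusted p = 0.168), also without overlap. Slbp gave 0.72 ± 0.22 (SE; adjusted p = 0.168) and Gins2 0.68 ± 0.52 (SE; adjusted p = 0.585), both with all Thpok-RKF+ libraries above. Gins1, Pola1, Prim1, Lig1, Tyms, Ccne2 and Uhrf1 were also without overlap, all lower in Thpok-RKF+. The share of all genes without overlap between these groups was not counted, so the separation cannot be read as a trait of the members. Thpok-RKF+ replicate 1 stood low for Slbp, at 97.4 CPM against 191 and 155. Without the 5 libraries numbered 1, where 5.98% of all genes were higher and 4.68% lower, 3 members passed: Rrm2 at -0.84 ± 0.15 (SE; adjusted p = 0.01161), Tyms at -0.70 ± 0.19 (SE; adjusted p just under 0.05) and Slbp at 0.91 ± 0.18 (SE; adjusted p = 0.01793). Rrm2 also passed without WT CD8 SP replicate 1 (adjusted p = 0.0467) and Slbp without Thpok-RKF+ CD4+CD8+ replicate 1 (adjusted p = 0.00862).

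A direct comparison of the libraries numbered 1 with those numbered 2 and 3, over all groups, had 8 members lower and none higher, where 5.53% of all genes were lower and 3.79% higher. They were Mcm2, Mcm4, Mcm5, Mcm6, Rfc4, Rfc5, Rpa2 and Rrm1, with a median over the 36 members of -0.22 against 0.03 over all genes. Without WT CD8 SP replicate 1 the count was 1. It was 4 without WT CD8 SP replicate 3 or Thpok-RKF- CD8 SP replicate 3, and 5 without WT CD8 SP replicate 2, Thpok-RKF- CD4+CD8+ replicate 1 or Thpok-RKF+ replicate 1. The labels do not say what the numbers stand for.

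Other replication factors, a list of 41 genes that are no members, were tested in the same fits. In WT CD4 SP 20 were lower than in WT CD8 SP and 2 higher, against 10.3% and 7.72% of all genes, with a median of -0.60. Clspn, an adaptor of the checkpoint at stalled forks, gave -3.10 ± 0.32 (SE; adjusted p = 1.07e-05), and Gmnn, the inhibitor of Cdt1, -1.49 ± 0.18 (SE; adjusted p = 5.43e-05). The genes that rose were Samhd1, which breaks down deoxynucleotides, at 1.28 ± 0.15 (SE; adjusted p = 4.69e-05), and Donson at 0.56 ± 0.13 (SE; adjusted p = 0.00784). In Thpok-RKF- CD8 SP against WT CD8 SP, 22 were lower and 0 higher, against 10.6% and 7.78% of all genes. Gmnn was among those lower, at -2.26 ± 0.18 (SE; adjusted p = 1.07e-06). In Thpok-RKF- CD4+CD8+ against Thpok-RKF- CD8 SP, 3 were higher and 0 lower, against 1.72% and 0.719% of all genes. They were Ticrr, Timeless (0.76 ± 0.17 SE, adjusted p = 0.0308) and Gmnn (0.73 ± 0.18 SE, adjusted p = 0.0453). Ticrr had 17 counts over the 3 CD8 SP libraries and 995 over the 3 CD4+CD8+ libraries. Samhd1 was the only gene of this list that passed between Thpok-RKF+ and Thpok-RKF- CD4+CD8+, at 0.94 ± 0.15 (SE; adjusted p = 0.00795). Its mean ± SD (n = 3) was 508 ± 29.0 CPM in WT CD4 SP, 208 ± 32.5 in WT CD8 SP, 191 ± 31.5 in Thpok-RKF- CD8 SP, 272 ± 23.0 in Thpok-RKF- CD4+CD8+ and 522 ± 83.5 in Thpok-RKF+ CD4+CD8+. Clspn was at 2.45 ± 0.499 CPM in WT CD4 SP and 13.8 ± 4.09 in Thpok-RKF- CD8 SP (n = 3 each), a difference of 2.49 ± 0.31 (SE; adjusted p = 7.28e-05). In that comparison 6 genes of the list fell and Nasp was the other that rose, against 8.75% and 8.91% of all genes. Against WT CD4 SP, 3 genes of this list were higher and 5 lower in Thpok-RKF- CD4+CD8+, against 9.15% and 8.42% of all genes. Clspn alone was higher in Thpok-RKF+ CD4+CD8+, where 4.36% of all genes were higher. Without the libraries numbered 1, 5 genes of the list were higher and 2 lower in Thpok-RKF+ than in Thpok-RKF- CD4+CD8+. In that comparison 5.98% of all genes were higher and 4.68% lower. The counts against WT CD4 SP were then 2 higher and 12 lower for Thpok-RKF- CD8 SP, and 1 higher and 1 lower for Thpok-RKF+. The shares of all genes against WT CD4 SP without those libraries were not counted. These counts can therefore not be read as a result about the list.

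Of 30 listed regulators of the G1/S transition that are no members, 28 were tested. In WT CD4 SP 9 were lower than in WT CD8 SP, against 10.3% of all genes, led by Ccna2, encoding cyclin A2, at -2.72 ± 0.37 (SE; adjusted p = 0.000168). In Thpok-RKF- CD8 SP against WT CD8 SP 11 were lower and 1 higher, against 10.6% and 7.78% of all genes. Ccna2 gave -5.06 ± 0.42 (SE; adjusted p = 1.33e-06) and the gene that rose was Cdkn1b, encoding the cyclin-dependent kinase inhibitor Kip1, at 0.86 ± 0.24 (SE; adjusted p = 0.0233). In Thpok-RKF- CD4+CD8+ against Thpok-RKF- CD8 SP 4 were higher, against 1.72% of all genes: Ccna2 (3.73 ± 0.40 SE, adjusted p = 0.000103), Ccnd2 (0.51 ± 0.09 SE, adjusted p = 0.00499), E2f7 and E2f8. E2f7 had 11 counts and E2f8 had 29 over the 3 CD8 SP libraries. None passed between Thpok-RKF+ and Thpok-RKF- CD4+CD8+, with 4 at an unadjusted p under 0.05, against 14.3% of all genes. Against WT CD4 SP, 2 were higher and 3 lower in Thpok-RKF- CD8 SP, against 8.91% and 8.75% of all genes. In Thpok-RKF- CD4+CD8+ 5 were higher, against 9.15% of all genes, and in Thpok-RKF+ CD4+CD8+ 2 (Ccnd2 and Cdk6), against 4.36%. Without the libraries numbered 1, 27 of the list were tested. Between the CD4+CD8+ groups 1 was then higher and 2 lower in Thpok-RKF+, against 5.98% and 4.68% of all genes. Against WT CD4 SP 3 were then higher and 8 lower in Thpok-RKF- CD8 SP and 3 higher and 1 lower in Thpok-RKF+. The shares of all genes against WT CD4 SP without those libraries were not counted. These counts can therefore not be read as a result about the list.

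Mitosis genes, a list of 20 that act after S phase, had larger median differences than the replication genes in the 4 comparisons given first here. Their summed level was at 210 to 377 CPM in WT CD4 SP, 850 to 1494 in WT CD8 SP, 67.5 to 74.4 in Thpok-RKF- CD8 SP, 581 to 627 in Thpok-RKF- CD4+CD8+ and 271 to 301 in Thpok-RKF+ CD4+CD8+. All 20 were lower in WT CD4 SP than in WT CD8 SP (median -2.07), 20 were lower in Thpok-RKF- CD8 SP than in WT CD8 SP (median -4.54), and 20 were higher in Thpok-RKF- CD4+CD8+ than in Thpok-RKF- CD8 SP (median 3.34). In Thpok-RKF+ against Thpok-RKF- CD4+CD8+, Top2a, Ube2c and Mki67 were lower (median of the list -1.06). All 20 values were negative there, 16 had an unadjusted p under 0.05, and 8 genes passed without the libraries numbered 1. Against WT CD4 SP, 19 were lower in Thpok-RKF- CD8 SP, 10 were higher in Thpok-RKF- CD4+CD8+ and 0 passed in Thpok-RKF+ CD4+CD8+, with 1 at an unadjusted p under 0.05. Without the libraries numbered 1 the 10 became 6, where the share of all genes was not counted. The shares of all genes that passed in the main fits are those given above with the members. The members' medians in the 4 comparisons before those against WT CD4 SP were -1.61, -2.0, 0.52 and -0.04, and the difference between the lists was not tested.

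Markers of other cell types moved with some groups. The 7 markers of NKT and innate-like cells, given above for the other groups, summed to 496 to 532 CPM in Thpok-RKF+ CD4+CD8+. Over 7 markers of regulatory T cells the summed level was at 332 to 428 CPM in WT CD4 SP, 144 to 172 in WT CD8 SP, 152 to 230 in Thpok-RKF- CD8 SP, 275 to 377 in Thpok-RKF- CD4+CD8+ and 244 to 306 in Thpok-RKF+ CD4+CD8+, with Foxp3 at 2.27 to 3.85 CPM in Thpok-RKF- CD8 SP and 22.4 to 50.1 in Thpok-RKF- CD4+CD8+. Over 10 markers of immature thymocytes it was at 378 to 424 CPM in WT CD4 SP, 676 to 723 in WT CD8 SP and 694 to 1250 over the 3 mutant groups, highest in Thpok-RKF- CD8 SP. Most of the sum in Thpok-RKF- CD8 SP was Ccr9, at a mean of 631 CPM there and 332 in WT CD8 SP. Dntt, the terminal transferase of immature lymphocytes, was at 107 to 197 CPM there and at 12.2 to 54.1 in the other groups. Rag1, Rag2 and Cd24a had means of 1.57, 0.194 and 2.06 CPM there, against 4.17, 0.673 and 2.98 in Thpok-RKF- CD4+CD8+. In Thpok-RKF- CD4+CD8+ against Thpok-RKF- CD8 SP, 5 of the 10 had positive and 5 negative values, and 1 was lower. Over 7 B cell markers the summed level was at 76.7 to 97.8 CPM in WT CD8 SP and at 5.53 to 24.8 elsewhere, while the defining marker Ms4a1 was at 0 in all 15 libraries. Over 8 myeloid markers it was at 54.7 to 110 CPM, over 7 erythroid markers at 0.0466 to 10.7 and over 7 stromal and epithelial markers at 3.35 to 17.0 in all 15 libraries. The 6 mature T cell markers summed to 5815 to 11404 CPM over all libraries. The part of NKT, regulatory T cell and immature markers in the differences of the replication genes was not tested.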

How the data were processed

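RNA of sorted mature thymocytes had been extracted with the RNeasy Plus Micro kit, amplified with SMARTer Ultra Low Input chemistry and sequenced as 101 bp pairs on a NovaSeq, per the labels' protocols. Tools listed in the submitters' processing notes are bcl2fastq 2.17, STAR, Trimmomatic, DESeq2 and HTSeq, with mm39 as the build. Neither annotation nor strand setting is given in the sources used here. The authors deposited whole-number read counts per gene, which were used for all tests, and normalised values in CPM (counts at a common library size), of which 100% were whole reads when scaled back (tolerance 0.01). Per table, 3 per-library columns matched no sample and were not used. Another 5 summary lines naming no gene, with 15.9 to 21.0% of counts, were left out.

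Counts were fitted with edgeR 4.0.16 in R 4.3.3 (TMM, filterByExpr with a minimum count of 10 and a minimum total of 15, quasi-likelihood F test on group means of all 15 libraries). P-values were adjusted by Benjamini-Hochberg over 16550 genes with a threshold of 0.05, all two-sided, and "higher", "lower", "rose", "fell" and "passed" refer to it. SE is that of the log2 fold change. The fit was tested on simulated data. Alternatives were DESeq2 1.42.0, limma 3.58.1 on log2(CPM + 1) of the deposited values, RLE size factors, no filter, only the groups compared, a replicate block, a term for libraries numbered 1, and leaving out those libraries or each library in turn. Exon lengths and overlaps came from GENCODE vM21 and promoters from RefSeq, both by symbol, since both are of an earlier build than the counts. Members and gene lists (other replication factors, G1/S regulators, mitosis, cell type markers) were chosen with earlier results of these data known. Values of every library are given for the member of each role with the smallest p over the 5 groups and for Mcm2, Pcna, Rrm2, Tk1, E2f1, Ccne1 and Slbp. In each comparison the 2 members with the smallest adjusted p and the 2 with the largest fold in each direction are named, with up to 4 genes of another list that passed.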

Additional observations from a re-analysis of the deposited data

Results flagged for a closer look

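For 30 members the difference between CD4-expressing and CD8 SP cells of the Thpok-RKF- groups differed from that between WT CD4 SP and WT CD8 SP by the edgeR test of the difference itself. For 11 of them both differences passed with opposite signs: lower in WT CD4 SP than in WT CD8 SP, and higher in Thpok-RKF- CD4+CD8+ than in Thpok-RKF- CD8 SP. All of these conditions, with the difference of differences called, held for 0.912% of all genes. For the 11 members the log2 differences of differences were 6.25 for Mcm10, 4.92 for Chaf1a, 4.89 for Rrm2, 4.82 for Tk1, 4.81 for Uhrf1, 4.68 for Dtl, 4.31 for Cdc6, 4.07 for Cdc45, 3.64 for E2f1, 3.48 for Lig1 and 2.48 for Tyms. WT cells came from different hosts and mutant cells from 1 kind of host, so host and genotype cannot be told apart.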

How the results depend on the processing

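The count of members called between Thpok-RKF+ and Thpok-RKF- CD4+CD8+, 0 as reported, was 2 with no low-count filter, 3 with DESeq2, 1 with a term for the libraries numbered 1 and 3 without those libraries. Without them the count in Thpok-RKF- CD4+CD8+ against Thpok-RKF- CD8 SP was 7 in place of 11. With only the groups compared, Thpok-RKF+ CD4+CD8+ against WT CD4 SP had 1 in place of 4. The cause was not tested. Leaving out 1 library gave 27 to 33 members in WT CD4 SP against WT CD8 SP, 0 to 1 between the CD4+CD8+ groups, 7 to 12 in Thpok-RKF- CD4+CD8+ against CD8 SP, 33 to 35 in Thpok-RKF- CD8 SP against WT CD8 SP and 10 to 13 against WT CD4 SP, 3 to 7 and 2 to 5 for Thpok-RKF- and Thpok-RKF+ CD4+CD8+ against WT CD4 SP, 32 to 34 for any difference, 28 to 31 for the difference of differences and 1 to 12 for the libraries numbered 1. Signs turned, never of a call, in 4 results. Cdt1 (range -0.11 to 0.0013) and Chaf1b (-0.10 to 0.056) turned in Thpok-RKF- CD4+CD8+ against CD8 SP without Thpok-RKF- CD4+CD8+ replicate 3. Mcm5 (-0.088 to 0.25) turned in Thpok-RKF- CD8 SP against WT CD4 SP without Thpok-RKF- CD8 SP replicate 2. Chaf1b turned in the difference of differences (-0.034 without WT CD4 SP replicate 2, -0.01 without WT CD8 SP replicate 3 and -0.0068 without Thpok-RKF- CD4+CD8+ replicate 2, up to 0.21).

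The replicate numbers were not treated as pairs: over 30 same-number pairs the correlation of deviations lay between -0.16 and 0.44, and 9 of 15 libraries correlated best with their own number. With a replicate block the counts in the order above were 33, 0, 12, 34, 14, 5, 5, 34 and 32. In Thpok-RKF- CD4+CD8+ against CD8 SP the block added Mcm5, Pola1 and E2f2 and lost Cdc6 and Cdc45, with 9 calls shared. Depth limits low members such as Gins1, with 6 to 44 counts per Thpok-RKF- CD8 SP library.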
